A study of Mus musculus with 30 samples.

Results

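The sclera of 3-week-old mice was compared with that of 1-week-old mice. The comparison used 12 of the 30 arrays of the series, namely all 6 titled for week 3 and all 6 titled for week 1. It covered the 21789 of 35556 transcript clusters (probe groups that the array's design assigns to 1 transcript unit) that carried a single gene symbol. Both groups were Balb/cJ mice, an albino inbred strain, at postnatal ages of 1 and 3 weeks, with no treatment named for either. The methods state that the animals came from the same family and that 1 sclera of 1 mouse, ground whole, gave the RNA of each array, so the 6 arrays of an age are 6 animals. Total RNA was labelled and hybridised to Mouse Gene 1.0 ST arrays, whose probes lie along the whole transcript, and the deposited values are log2 signals. The weeks 2, 6 and 8, with 6 arrays each, entered the fit but are named only where they place a value. The labels and methods do not state the sex of the mice. Precision is limited by there being 6 arrays a week.

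The sclera is the fibrous outer coat of the eye. Its fibroblasts lay down bundles of collagen fibrils whose width and spacing are set by small proteoglycans, with elastic fibres between them. In the mouse the eyelids are still fused in the first postnatal week and open before weaning, while the eye grows, the photoreceptors mature and the surface epithelium of the cornea and conjunctiva becomes layered. On the outside of the sclera lie the extraocular muscles and the conjunctiva, and on its inside the choroid, the pigment epithelium and the retina.

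Differences were tested with limma in 1 fit over the 30 arrays. To be called higher or lower in week 3, a transcript cluster or gene had to change 2-fold or more with an adjusted p (Benjamini-Hochberg over all 35556 transcript clusters) no larger than 0.05. Of all transcript clusters, 963 (2.71%) were called higher and 1581 (4.45%) lower in week 3, together 7.15%. Among those with a single symbol, 714 (3.28%) were higher and 739 (3.39%) lower. For each of 19938 genes the brightest of its transcript clusters stands for the gene, and of these genes 694 (3.48%) were called higher and 613 (3.07%) lower. These shares, beside a median log2 fold change of 0.05 over all genes, are the background against which the gene lists below are read. At a fold change of 8 or more, 14 genes were higher and 41 lower. The 6 arrays of week 3 all lay above the 6 of week 1 for 16.8% of genes and all below for 9.54%. A principal component analysis of the 12 arrays put 59.3% of the variance on its leading axis and 12.2% on the next.

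Defining markers of scleral fibroblasts were measured on all 12 arrays, whose median log2 signals lay between 6.15 and 6.24. Col1a1, the main chain of type I collagen, lay at 12.79, 12.99 and 13.35 in week 1 and at 12.22, 12.85 and 13.08 in week 3 (lowest, median and highest of 6 arrays, log2 signal, the order used throughout). The decorin gene Dcn, whose protein binds collagen fibrils, lay at 11.48, 12.16 and 12.37 in week 1 and at 11.45, 11.92 and 12.27 in week 3. Of the other defining markers Lum was called lower and Prelp higher, as given below, and Col1a2 and Fmod were not called. In a longer list of 18 measured fibroblast markers 2 were higher and 3 lower, 27.8% against 6.56% of all genes called. With the Xist covariate of the next paragraph, 3 were higher and 1 lower. Markers of other tissues were measured as well. Skeletal alpha-actin (Acta1) lay at 11.36, 12.84 and 13.10 in week 1 and at 8.13, 8.65 and 9.53 in week 3, the lens crystallin Cryaa at 5.85, 10.27 and 12.60 in week 1 and at 6.48, 6.56 and 6.66 in week 3, and the corneal keratin Krt12 at 7.92, 10.87 and 11.92 in week 1 and at 8.36, 12.80 and 13.31 in week 3. The arrays thus held transcripts of muscle and corneal epithelium beside those of scleral fibroblasts. Lens transcripts stood out on most week 1 arrays only. The mean of 22 lens genes lay between 5.68 and 5.90 in week 3. In week 1 it lay at 5.71 on replicate 2 and between 7.20 and 10.16 on the other arrays. Of the cartilage genes, Acan lay between 4.39 and 4.99, Col2a1 between 7.23 and 8.25 and Col9a1 between 6.52 and 8.14, while the bone gene Ibsp lay between 4.06 and 4.57 and the fat cell gene Adipoq between 3.64 and 4.74 over the 12 arrays. In whole tissue, fewer cells of a type and less RNA per cell cannot be told apart.

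Single arrays stood apart in these other tissues. Week 3 replicate 3 was lowest of its week in surface epithelium, with Krt12 at 8.36 against 12.65 on the next array. In week 1, replicate 2 was lowest in rod, lens and pigment epithelium genes, and replicate 6 was lowest in muscle genes. Replicates 1 and 2 of week 1, with rod gene means of 7.68 and 7.26, lay within the week 3 range of 6.83 to 8.13. The X-linked transcript Xist, which coats the inactive X chromosome in female cells, lay between 12.57 and 12.94 on all week 3 arrays. In week 1 it lay between 4.71 and 5.59 on replicates 1, 2 and 5 and between 10.98 and 11.34 on replicates 3, 4 and 6. The Y-linked gene Eif2s3y ran the other way, at 7.78 to 8.04 on week 1 replicates 1, 2 and 5, at 2.61 to 2.70 on replicates 3, 4 and 6, and at 0.59 to 0.81 on every week 3 array. Both were called (Xist 24.9-fold higher, adjusted p = 0.00246, and Eif2s3y 23.2-fold lower, adjusted p = 0.000323). Of 742 X-linked genes 17 were higher and 39 lower, and of 9 Y-linked genes 4 were lower. Over all genes 3.48% were higher and 3.07% lower. A fit that carries the Xist signal as a covariate was added after seeing the data. Where it changed the call of a gene named below, or moved the count of a list described below by more than 1.5 times, that is given beside the result. The calls of Xist and Eif2s3y themselves were lost in it. What sets the sex-linked transcripts apart between the weeks was not tested.

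**Figure D1:**
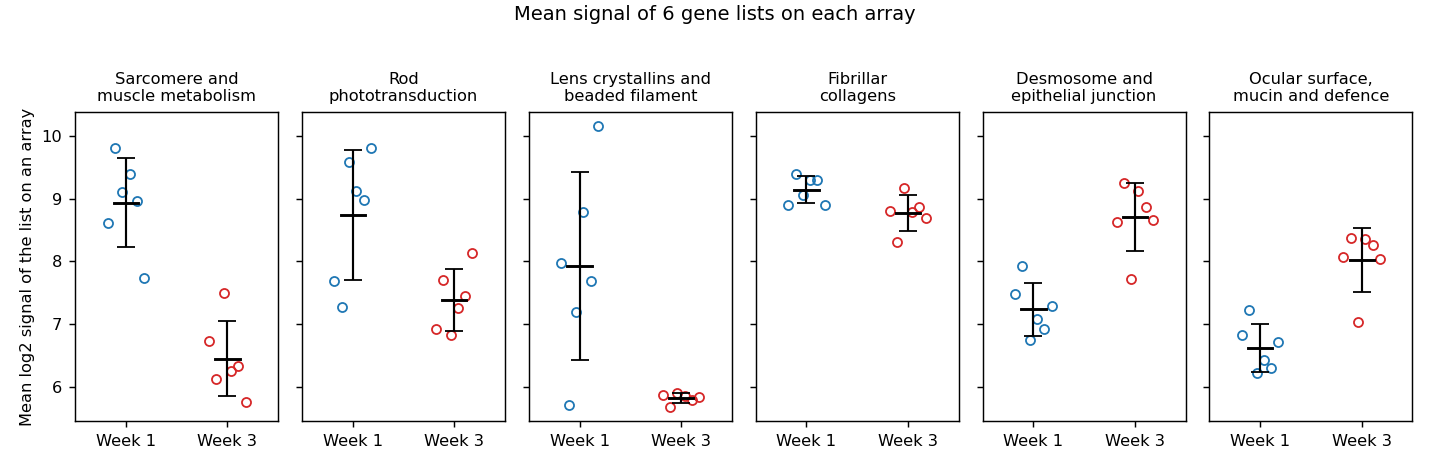
Mean log2 signal over the measured members of 6 gene lists (vertical axis) on each of the 12 arrays. Each open circle is 1 array and the black bars give mean and SD. Muscle means are lower in week 3 without overlap, rod and lens means are lower with overlap, fibrillar collagen means overlap, and both epithelial lists are higher apart from 1 low week 3 array.

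The lists with the lowest median log2 fold changes were the myosin heavy chains of striated muscle (-3.79) and the sarcomere and muscle metabolism genes. The list of myogenic factors and muscle acetylcholine receptors had a median of -0.47. Of 51 measured genes of the sarcomere and of muscle metabolism, 41 were called lower in week 3 and none higher, with a median log2 fold change of -2.53. Myh1, a fast myosin heavy chain, lay at 9.62, 11.54 and 11.71 in week 1 and at 5.18, 5.82 and 6.96 in week 3. It was 39.0-fold lower (log2 fold change -5.29, SE 0.395, adjusted p = 7.11e-11), and no array of week 3 reached the lowest of week 1. Ttn, which encodes the giant elastic protein titin, lay at 9.81, 11.46 and 12.37 in week 1 and at 5.25, 6.11 and 7.47 in week 3 and was 33.8-fold lower (adjusted p = 3.18e-11). The calcium pump of fast muscle, Atp2a1, was 27.6-fold lower, the calcium sensor of fast troponin, Tnnc2, 27.6-fold lower, the fast light chain Myl1 38.4-fold lower and the calcium store protein Casq1 27.5-fold lower. The muscle creatine kinase Ckm was 13.0-fold and skeletal alpha-actin Acta1 15.2-fold lower. In 28 of the 51 genes every week 3 array lay below every week 1 array, which held for 9.54% of all genes. The mean of the list lay between 7.73 and 9.81 on the week 1 arrays and between 5.76 and 7.5 on the week 3 arrays, so the means did not overlap either.

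Developmental and specialised myosins fell with the adult forms. Of 10 measured myosin heavy chains of striated muscle, 6 were lower. The embryonic heavy chain Myh3 lay at 7.95, 8.89 and 11.64 in week 1 and at 2.39, 5.36 and 7.02 in week 3 and was 21.7-fold lower (log2 fold change -4.44, SE 0.785, adjusted p = 3.93e-05). Myh15, a slow-type myosin of extraocular muscle, lay at 7.33, 8.90 and 11.66 in week 1 and at 1.35, 4.59 and 6.52 in week 3 and was 34.4-fold lower (log2 fold change -5.10, SE 0.907, adjusted p = 4.24e-05). Both had wide ranges within a week, and both stayed apart between weeks. Of 24 genes for myogenic factors and muscle acetylcholine receptors, 5 were lower, among them the late myogenic factor Myf6, 5.40-fold lower, and the adhesion molecule Ncam1, 3.69-fold lower. Leaving out any 1 of the 12 arrays left between 38 and 44 sarcomere and metabolism genes called lower. The mean of that list was 6.68 in week 2 and 8.30 and 8.45 in weeks 6 and 8, so the low level of week 3 was shared with week 2 and not with the later ages. The part of dissection, that is of how much extraocular muscle stayed on the sclera, was not tested.

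Parts of the promoters of these genes are shown as a description, and motifs were searched in the 250 bases before the transcription start. Sequences are from RefSeq on GRCm38.p6, read 5′ to 3′ on the gene's strand. The hexamer CAGCTG, an E-box of the kind that myogenic factors bind, was searched on both strands. It was present in 21 of 44 promoters of the measured sarcomere and metabolism genes (47.7%) against 13% of all 32851 promoters of the same length. Among promoters of the called members it was in 16 of 35 (45.7%), no larger a share. A loose form of the MEF2 core (CTA, then 4 bases of any kind, then TAG) was present in 5 of the 44 (11.4%) against 3.2% of all. In the MEF2 core itself these 4 bases are A or T. The Smpx match below has a G among them, and the Xirp2 match has only A. The stretches below cover 150 of the 250 bases, with the match in capitals. A match is a description of the letters and not a site, and a link of any motif to the change was not tested.
Atp2a1, chr7:126463074-126463223, minus strand: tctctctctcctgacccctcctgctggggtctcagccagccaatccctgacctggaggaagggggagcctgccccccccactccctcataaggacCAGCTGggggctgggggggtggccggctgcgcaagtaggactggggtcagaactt
Casq1, chr1:172219996-172220145, minus strand: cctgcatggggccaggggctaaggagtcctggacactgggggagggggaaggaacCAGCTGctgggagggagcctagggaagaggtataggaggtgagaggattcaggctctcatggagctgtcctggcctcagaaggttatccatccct
Smpx, chrX:157698823-157698972, plus strand: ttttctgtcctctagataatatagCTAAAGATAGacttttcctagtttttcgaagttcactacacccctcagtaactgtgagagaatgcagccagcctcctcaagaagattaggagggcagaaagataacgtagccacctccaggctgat
Xirp2, chr2:67445852-67446001, plus strand: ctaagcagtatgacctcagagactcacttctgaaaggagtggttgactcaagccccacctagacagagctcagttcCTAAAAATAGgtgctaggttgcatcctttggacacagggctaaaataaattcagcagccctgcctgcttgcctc

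Genes of the retina and of its pigment epithelium were lower in week 3. Of 31 measured genes of rod phototransduction 20 were lower and 1 higher, with a median log2 fold change of -1.41. The rod arrestin gene Sag, whose product ends the light response, lay at 9.13, 11.15 and 11.84 in week 1 and at 7.47, 8.02 and 8.73 in week 3 and was 6.58-fold lower (log2 fold change -2.72, SE 0.49, adjusted p = 5.1e-05). Phosducin (Pdc), which binds transducin subunits, lay at 7.89, 10.60 and 11.31 in week 1 and at 5.61, 6.45 and 7.38 in week 3 and was 11.6-fold lower. The axoneme gene Rp1 of the photoreceptor outer segment was 14.0-fold lower (log2 fold change -3.80, SE 0.519, adjusted p = 1.12e-06). Weeks did not overlap for these 3 of the 31 genes and for no other member of the list. That share was close to the 9.54% of all genes with every week 3 array below week 1. For the rod cyclase activator Guca1a the direction was the other one, 3.07-fold higher (log2 fold change 1.62, SE 0.326, adjusted p = 0.000186), and its arrays overlapped, as week 1 reached 7.54 and week 3 began at 7.46. The rod transducin subunit Gnat1 had overlapping arrays and was 3.02-fold lower with an adjusted p of 0.0364, which passed the threshold only narrowly and missed it without any 1 of week 1 replicates 3 to 6 or of week 3 replicates 1 and 3, 4 and 5, at up to 0.0975, and with the Xist covariate, at 0.0642. Of 13 cone genes 4 were lower, the short-wave opsin Opn1sw by 3.00-fold and Gnb3 by 2.94-fold, and 2 without week 1 replicate 3, 4 or 6 or week 3 replicate 1. For none of the 13 were the weeks apart.

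Some transcription factors and synaptic genes of the retina were lower. Neurod1, a factor of photoreceptors and amacrine cells, lay at 6.45, 9.23 and 10.20 in week 1 and at 4.2, 5.08 and 6.00 in week 3 and was 12.9-fold lower (log2 fold change -3.69, SE 0.477, adjusted p = 5.02e-07). Otx2, which directs photoreceptor and pigment epithelium fate, lay at 8.26, 10.05 and 10.25 in week 1 and at 7.14, 7.35 and 7.91 in week 3 and was 5.05-fold lower. No array of week 3 reached week 1 for either gene. Together 5 of 23 retinal transcription factors, 7 of 29 inner retinal neuron genes and 14 of 31 synaptic vesicle and release genes were lower and none of them higher, with median log2 fold changes of -0.06, -0.31 and -0.61. All week 3 arrays lay below all of week 1 for 3, 0 and 1 members of these lists, against 9.54% of all genes. The count of inner retinal genes was 4 without week 1 replicate 6 and 11 with the Xist signal as a covariate, where 1 more was higher. Snap25, a protein of vesicle release, was 6.15-fold lower (log2 fold change -2.62, SE 0.437, adjusted p = 1.87e-05). Of 14 Mueller glia genes 3 were lower, among them the retinaldehyde-binding gene Rlbp1, 6.91-fold lower (log2 fold change -2.79, SE 0.406, adjusted p = 2.84e-06). Another Mueller gene, glutamine synthetase Glul, lay at 10.56, 11.02 and 11.25 in week 1 and at 11.45, 11.54 and 11.64 in week 3 and had a log2 fold change of 0.56, below the 2-fold threshold with its arrays apart and week 3 above.

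The homeodomain core TAATCC, which the photoreceptor factor CRX binds, was present in 10 of 27 promoters of the measured rod genes (37%) against 6.25% of all promoters, counted on both strands. Among promoters of the called members it was in 7 of 18 (38.9%), a similar share. The match is in capitals below, in 2 rod genes that fell, to show its place before the start.
Sag, chr1:87803530-87803679, plus strand: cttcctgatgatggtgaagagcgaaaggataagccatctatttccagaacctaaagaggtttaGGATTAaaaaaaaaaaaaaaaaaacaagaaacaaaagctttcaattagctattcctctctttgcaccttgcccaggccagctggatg
Gngt1, chr6:3993858-3994007, plus strand: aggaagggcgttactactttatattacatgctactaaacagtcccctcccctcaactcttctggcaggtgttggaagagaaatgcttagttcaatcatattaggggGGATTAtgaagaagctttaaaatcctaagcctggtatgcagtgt

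Of 17 pigment epithelium and visual cycle genes, 9 were lower. Ttr, which carries retinol and thyroxine, lay at 10.06, 11.64 and 12.11 in week 1 and at 8.45, 9.28 and 9.55 in week 3 and was 4.82-fold lower (log2 fold change -2.27, SE 0.498, adjusted p = 0.000471). Rgr, a retinal-binding opsin of that epithelium, lay at 9.54, 11.12 and 11.54 in week 1 and at 8.37, 9.20 and 9.43 in week 3, with the weeks apart and the lowest week 1 array (replicate 2, at 9.54) close to the highest of week 3. The visual cycle isomerase Rpe65 was 3.67-fold lower (log2 fold change -1.88, SE 0.601, adjusted p = 0.0113), and its adjusted p was 0.0904 with the Xist signal as a covariate. Among 28 melanosome and melanocyte genes 9 were lower, a count that was 4 without week 1 replicate 1, without week 3 replicate 2 or with the Xist covariate. The melanin enzyme gene Dct lay at 11.39, 12.12 and 12.73 in week 1 and at 10.44, 10.89 and 11.29 in week 3 and Tyrp1 at 10.98, 11.76 and 12.48 in week 1 and at 10.03, 10.59 and 11.07 in week 3. Dct was 2.34-fold and Tyrp1 2.30-fold lower, and with the Xist covariate their adjusted p were 0.0643 and 0.144. That of Tyrp1 was 0.0575 without week 1 replicate 1 and 0.0505 without week 3 replicate 2. Of the 50 gene lists, the lens list had the largest SD between week 1 arrays, 1.5. Of 22 crystallin and beaded filament genes 15 were lower (median log2 fold change -1.91), and the list mean ranged from 5.71 to 10.16 in week 1 and from 5.68 to 5.90 in week 3. Cryga, a gamma crystallin of lens fibres, lay at 5.56, 10.33 and 12.66 in week 1 and at 5.23, 5.48 and 5.55 in week 3 and was 24.1-fold lower (log2 fold change -4.59, SE 0.677, adjusted p = 3.45e-06), with week 1 replicate 2 just above the highest week 3 array. Crygd and Cryba1 were 32.1-fold and 23.4-fold lower with overlapping arrays, since week 1 replicate 2 lay at the week 3 level. How much lens, retina or choroid stayed on each sclera was not tested.

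Genes of surface epithelium held the largest shares called higher among the 50 lists. Of 34 measured genes of desmosomes and epithelial junctions, 27 were called higher and none lower, with a median log2 fold change of 1.63. Of 34 keratin and envelope genes 18 were higher (median 1.27), and of 38 ocular surface, mucin and defence genes 22 were higher (median 1.34), again with none lower. Psca, a membrane-anchored antigen of epithelia, lay at 4.08, 4.30 and 5.01 in week 1 and at 6.73, 10.04 and 10.81 in week 3 and was 38.1-fold higher (log2 fold change 5.25, SE 0.525, adjusted p = 8.63e-09). Pglyrp1, a secreted protein that binds bacterial peptidoglycan, lay at 7.31, 8.11 and 9.37 in week 1 and at 11.29, 12.37 and 12.48 in week 3 and was 16.4-fold higher (log2 fold change 4.04, SE 0.265, adjusted p = 4.65e-12). Plet1, a surface protein of epithelial progenitors, was 12.4-fold higher, the lipoxygenase Alox15 11.3-fold, the sodium-glucose transporter Slc5a1 10.2-fold, the predicted gene Gm9573 10.1-fold and the filaggrin protease Asprv1 9.65-fold. In all of these the 6 arrays of week 3 lay above the 6 of week 1.

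Keratins differed in how far the arrays separated. Krt13, a keratin of layered mucosal epithelium, lay at 8.34, 8.99 and 10.70 in week 1 and at 11.02, 12.31 and 12.39 in week 3 and was 7.35-fold higher (log2 fold change 2.88, SE 0.274, adjusted p = 3.98e-09), and Krt4, its partner, was 7.65-fold higher, both with the weeks apart. Krt17, a keratin of stressed epithelium, was 8.33-fold higher and also apart. Krt5, of basal cells, lay at 10.26, 11.21 and 11.98 in week 1 and at 11.53, 12.83 and 13.18 in week 3 with overlapping arrays and was 2.90-fold higher. The corneal keratin Krt12 lay at 7.92, 10.87 and 11.92 in week 1 and at 8.36, 12.80 and 13.31 in week 3 and was 3.27-fold higher with an adjusted p of 0.0265. Its call was lost in the fit of the 12 arrays alone (adjusted p = 0.125), with the Xist covariate (0.0979) and without any 1 of week 1 replicates 4 and 5 or week 3 replicates 1, 2, 4, 5 and 6 (up to 0.0975). Without week 3 replicate 3, the counts of the keratin, desmosome and ocular surface lists were 18, 27 and 22, the same as with it.

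Junction genes included the desmosomal cadherin Dsg3, 5.54-fold higher, the plaque protein Pkp1, 5.09-fold higher, the tight junction protein Cldn7, 6.63-fold higher, and the epithelial factor Elf3, 5.68-fold higher. Cldn7 alone of these 4 had its weeks apart, lying at 5.83, 6.44 and 7.32 in week 1 and at 7.84, 9.35 and 9.77 in week 3. Among surface genes, the water channel Aqp5 lay at 6.92, 7.89 and 8.67 in week 1 and at 8.66, 11.28 and 11.99 in week 3 and was 8.93-fold higher (log2 fold change 3.16, SE 0.417, adjusted p = 6.89e-07). Lypd2, a small relative of Psca, was 8.78-fold higher. The lowest week 3 value of both, at 8.66 and 7.39, was that of replicate 3. The gland markers Ltf and Muc5ac had log2 fold changes of 0.93 and 0.81, below the threshold, which Ltf passed with the Xist covariate (1.03). Laminin subunits, which build basement membranes, were also higher, with Lamb3 2.38-fold and Lama3 2.26-fold higher and arrays overlapping, and with them Lama5, 2.24-fold higher, and Lamc3, 2.08-fold higher, whose arrays were apart. The change of Lamc3 was under 2-fold without week 1 replicate 2 (log2 fold change 0.94) or week 3 replicate 3 (0.92). These 4 were the called members of 22 basement membrane genes.

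The heptamer TGANTCA (N is any base) was searched, a looser form of the AP-1 site, whose middle base is C or G. It was present in 10 of 25 promoters of the measured keratin and envelope genes (40%) against 6.75% of all promoters. Of the 10 promoters of the called members 2 had it. In the promoter of Krt13, described above, the match in capitals has A as its middle base, so it fits only the looser form.
Krt13, chr11:100121667-100121816, minus strand: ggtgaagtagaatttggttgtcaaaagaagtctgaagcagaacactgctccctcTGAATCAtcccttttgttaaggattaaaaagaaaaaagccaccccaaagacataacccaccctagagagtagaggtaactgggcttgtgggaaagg

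**Figure D2:**
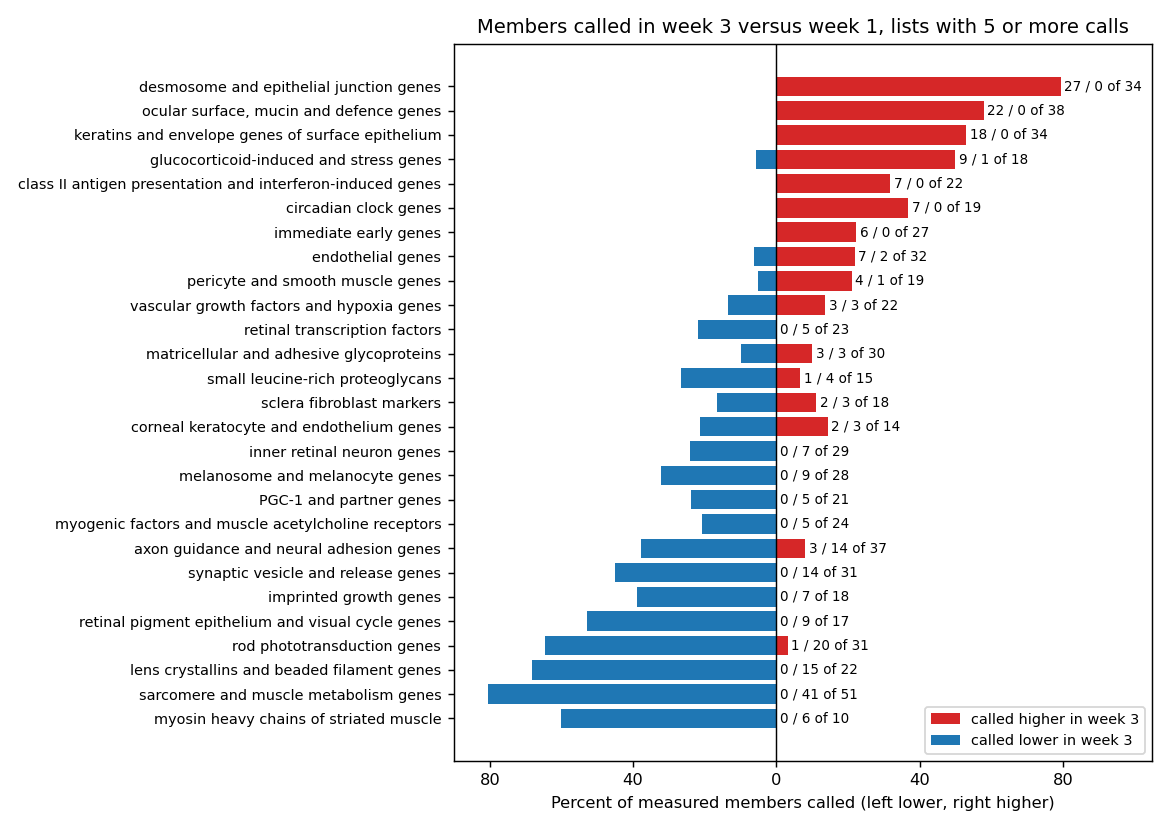
Percent of the measured members of each gene list that were called lower (bars to the left, blue) or higher (bars to the right, red) in week 3, for lists with 5 or more calls, ordered by median log2 fold change. Numbers give members called higher, called lower and measured. Myosin, sarcomere, lens and rod lists stand at one end and epithelial lists at the other.

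The genes of the collagen framework did not pass the 2-fold threshold. None of 11 measured fibrillar collagen genes was called, and their median log2 fold change was -0.36. Col1a1 and Col1a2 had log2 fold changes of -0.22 and -0.42 with adjusted p of 0.334 and 0.131. Col3a1, of type III collagen, lay at 11.37, 11.85 and 12.27 in week 1 and at 10.58, 11.01 and 11.52 in week 3 with a log2 fold change of -0.79 (adjusted p = 0.0126), and Col5a2, of the type V collagen that starts fibrils, had -0.75 (adjusted p = 0.0055). Both passed the adjusted p and not the 2-fold threshold, as did Col6a3 of the beaded filaments (-0.89, adjusted p = 0.0033). Col11a1, of the type XI collagen that also starts fibrils, had -0.83 (adjusted p = 0.000493), with week 3 below week 1 on every array. Among 20 fibril-associated and other collagens, Col8a1 alone was lower, by 2.09-fold (log2 fold change -1.06, SE 0.27, adjusted p = 0.0019), and its change was under 2-fold without week 1 replicate 5 or week 3 replicate 2 and with the Xist covariate (log2 fold change -0.91), so that none of the 20 was then called lower. Of 31 genes for collagen hydroxylation, folding and cross-linking, the lysyl hydroxylase Plod2 was 2.35-fold lower and the prolyl 3-hydroxylase P3h2 2.06-fold higher, both with arrays apart. The change of P3h2 was just under 2-fold without week 1 replicate 3 or week 3 replicate 2, with a log2 fold change of 0.98 in both. With the Xist covariate 2 genes of the list were higher and 2 lower. In the main fit 5.0% of the 20 other collagens and 6.45% of the 31 genes were called, against 6.56% of all genes.

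Proteins that decorate the fibrils moved in both directions. Of 15 small leucine-rich proteoglycans, 4 were lower and 1 higher. Lumican (Lum), which limits fibril width, lay at 8.83, 9.72 and 10.07 in week 1 and at 7.96, 8.51 and 8.76 in week 3 and was 2.25-fold lower (log2 fold change -1.17, SE 0.303, adjusted p = 0.00224), with its arrays apart. Keratocan (Kera), of the corneal stroma, lay at 7.82, 8.80 and 9.45 in week 1 and at 6.39, 7.09 and 8.25 in week 3 and was 2.93-fold lower, asporin (Aspn) was 2.46-fold lower and epiphycan (Epyc) 2.19-fold lower, with overlapping arrays. Epyc was under 2-fold without week 1 replicate 2 (log2 fold change -0.89). Prelp, which ties collagen to basement membrane, lay at 8.84, 9.18 and 9.74 in week 1 and at 9.63, 10.32 and 10.82 in week 3 and was 2.10-fold higher (log2 fold change 1.07, SE 0.248, adjusted p = 0.000814), a call lost without week 1 replicate 1 or week 3 replicate 3. Fibromodulin (Fmod) had a log2 fold change of 0.66 (adjusted p = 0.0598) and was not called. With the Xist signal as a covariate, Lum had a log2 fold change of -0.66 (adjusted p = 0.121) and Aspn -0.86 (adjusted p = 0.107), Epyc had -0.90, and 2 of the 15 were lower and 2 higher.

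In the elastic fibre list, 2 of 17 genes were higher and 2 lower. Fibrillin 2 (Fbn2), the microfibril protein of early tissue, lay at 8.78, 9.12 and 9.46 in week 1 and at 7.11, 7.92 and 8.23 in week 3 and was 2.49-fold lower (log2 fold change -1.32, SE 0.23, adjusted p = 3.32e-05), and no week 3 array reached week 1. The latent TGF-beta binding protein Ltbp4, needed for elastin assembly, lay at 8.72, 8.99 and 9.62 in week 1 and at 9.94, 10.21 and 10.82 in week 3 and was 2.26-fold higher (log2 fold change 1.17, SE 0.175, adjusted p = 4e-06), also apart. Mfap5, a small microfibril protein, was 2.67-fold lower and Efemp1, a fibulin, 2.10-fold higher, with overlap. The call of Efemp1 was lost without week 1 replicate 3 or 5 or week 3 replicate 2. With the Xist covariate 4 of the 17 were higher and 1 lower, and Mfap5 had a log2 fold change of -0.77 (adjusted p = 0.0786). Elastin itself (Eln) lay at 9.67, 10.17 and 10.74 in week 1 and at 10.59, 11.02 and 11.65 in week 3 and had a log2 fold change of 0.88 (adjusted p = 0.004), under the threshold, and 1.31 with the Xist covariate, past it.

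Of 30 matricellular and adhesive glycoproteins 3 were lower and 3 higher. Periostin (Postn), a protein of growing connective tissue, lay at 9.53, 10.21 and 11.11 in week 1 and at 7.86, 8.45 and 8.72 in week 3 and was 3.53-fold lower (log2 fold change -1.82, SE 0.264, adjusted p = 2.79e-06). Matrix Gla protein (Mgp), an inhibitor of calcification, lay at 9.16, 9.36 and 10.08 in week 1 and at 10.58, 10.91 and 11.75 in week 3 and was 2.88-fold higher (log2 fold change 1.52, SE 0.27, adjusted p = 4.1e-05). Both genes had their weeks apart. Spock3 was 2.65-fold lower and dermatopontin (Dpt) 2.56-fold lower, while the connective tissue growth factor Ccn2 was 2.24-fold and Tgfbi 2.13-fold higher. Dpt fell just under 2-fold without week 1 replicate 2 (log2 fold change -0.99) and had -0.63 with the Xist covariate (adjusted p = 0.229). Of 21 matrix metalloproteinases and inhibitors, stromelysin Mmp3 was 3.13-fold higher (log2 fold change 1.65, SE 0.235, adjusted p = 2.21e-06). Timp3, an inhibitor, was 2.46-fold higher, and both were apart, while Mmp16 was 2.07-fold lower, just under 2-fold without week 3 replicate 2 (log2 fold change -0.98), after quantile normalization (-0.96) and with the Xist covariate (-0.88). Of 27 cartilage-type genes the intermediate layer protein Cilp was 2.02-fold lower and the growth factor receptor Fgfr3 2.58-fold higher. That was 7.41% of the list, against 6.56% of all genes called. Cilp was under 2-fold without any 1 of week 1 replicates 2 and 4 or week 3 replicates 2, 4 and 6 (log2 fold change -0.88 to -0.97), with the Xist covariate (-0.89) and after quantile normalization (-0.94), and no gene of the list was then called lower in either of the last 2. Tenomodulin (Tnmd), a tendon protein, was 2.46-fold lower, and the type II collagen gene Col2a1 at a log2 fold change of -0.35 was not called.

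**Figure D3:**
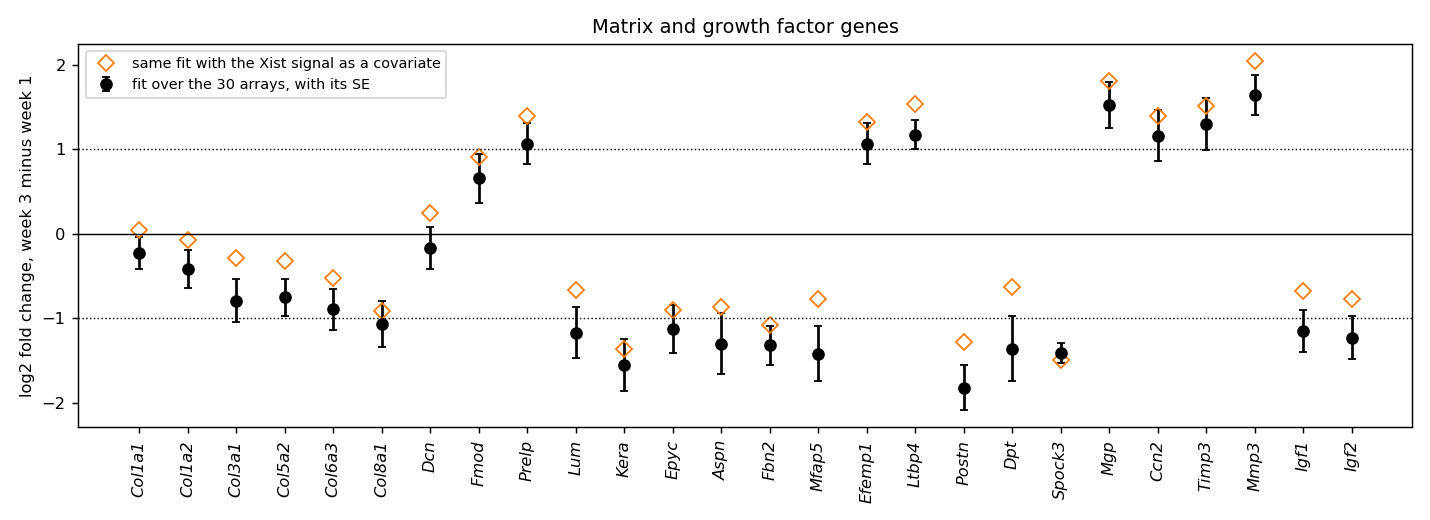
Log2 fold change of week 3 minus week 1 (vertical axis) for 26 matrix and growth factor genes. Black points and bars are the fit over the 30 arrays with its SE, orange diamonds the same fit with the Xist signal as a covariate, and dotted lines the 2-fold threshold. No fibrillar collagen passes the threshold, with Col1a1 nearer to 0 than Col3a1 and Col5a2, and Col1a1 and Dcn on the other side of 0 under the covariate, and Lum, Aspn, Mfap5, Dpt, Igf1 and Igf2 move inside the threshold with the covariate.

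Of 23 genes of the insulin-like growth factor family 2 were lower and none higher, 8.7% called against 6.56% of all genes. The median log2 fold change of the list was 0.26, above 0. Igf2, a fetal growth factor from an imprinted gene, lay at 9.57, 10.36 and 11.09 in week 1 and at 8.63, 9.10 and 9.47 in week 3 and was 2.34-fold lower (log2 fold change -1.23, SE 0.255, adjusted p = 0.000266), with its arrays apart. Igf1, which mediates growth hormone action, lay at 8.10, 8.57 and 9.69 in week 1 and at 7.22, 7.51 and 8.13 in week 3 and was 2.21-fold lower with overlapping arrays. Igf1 was under 2-fold without week 1 replicate 1 (log2 fold change -0.94), and with the Xist covariate Igf1 and Igf2 had log2 fold changes of -0.67 and -0.77, so neither was called, and 1 other member was called higher. Of 37 TGF-beta and BMP genes, the antagonist noggin (Nog) was 2.03-fold higher, and its change was under 2-fold without any 1 of week 1 replicates 2 and 3 or week 3 replicates 3 and 5, and after quantile normalization or with the Xist covariate (log2 fold change 0.98 in both). Tgfb1 and Tgfb2 had log2 fold changes of 0.61 and -0.27 and were not called. Among 36 Wnt ligands and inhibitors, the inhibitors Frzb and Sostdc1 were 3.03-fold and 2.43-fold lower with arrays apart, and the epithelial ligand Wnt7b 2.51-fold higher. With the Xist covariate 2 of the 36 were higher. The retinoic acid receptor Rarg was 2.09-fold higher and the retinal dehydrogenase Aldh1a3 2.02-fold higher, out of 18 retinoic acid genes. Aldh1a3 was under 2-fold without any 1 of week 1 replicates 3 and 5 or week 3 replicates 2, 4 and 5 (log2 fold change 0.89 to 0.97), and 1 gene of the list was called lower with the Xist covariate. Cell cycle genes stayed mostly below the threshold, as 2 of 67 were higher, namely cyclin D1 (Ccnd1), 2.31-fold, and the methylation maintenance gene Uhrf1, 2.24-fold. Of the TGF-beta and BMP, Wnt, retinoic acid and cell cycle lists, 2.7%, 8.33%, 11.1% and 2.99% were called, against 6.56% of all genes.

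Imprinted genes are expressed from only the mother's or the father's copy, and many of them act in fetal growth. Of 18 measured imprinted growth genes 7 were lower and none higher, with a median log2 fold change of -0.84. For 11 of the 18 all week 3 arrays lay below all of week 1, against 9.54% of all genes. Zim1, a zinc finger gene, lay at 6.73, 7.83 and 9.0 in week 1 and at 4.85, 5.14 and 5.62 in week 3 and was 6.23-fold lower (log2 fold change -2.64, SE 0.255, adjusted p = 4.92e-09). Its neighbour Peg3, a paternally expressed zinc finger gene, lay at 9.11, 9.66 and 9.97 in week 1 and at 7.25, 7.46 and 7.86 in week 3 and was 4.33-fold lower (log2 fold change -2.11, SE 0.227, adjusted p = 2.84e-08). The noncoding Meg3 lay at 10.38, 11.14 and 11.29 in week 1 and at 8.72, 9.02 and 9.54 in week 3 and was 3.91-fold lower (log2 fold change -1.97, SE 0.273, adjusted p = 1.4e-06). In each of these 3 genes the weeks were apart. Nnat, Mest, Grb10 and Peg10 were 3.53-fold, 2.62-fold, 2.55-fold and 2.48-fold lower, all apart. Plagl1 and Cdkn1c had log2 fold changes of -0.98 and -0.66 and were under the threshold. The list counted 6 with the Xist covariate, where Grb10 had a log2 fold change of -0.95, and 7 or 8 without any 1 array.

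Some microRNA hairpins of the same imprinted locus were lower too. On mouse chromosome 12, between the genes Dlk1 and Dio3, the maternal copy gives rise to long transcripts (Meg3, Rian and Mirg) that carry many microRNA hairpins. This locus was singled out after its values were seen, and the hairpins share the same long transcripts, so they are not independent measurements. Of 40 measured hairpin genes there, 13 were lower and none higher, 36 had a log2 fold change below 0, and the median was -0.58. The other 27 were not called, among them every measured hairpin between Meg3 and the end of Rian, and the 13 all lay beyond Rian on the side of Dio3. Of the 256 other measured hairpin genes, 7 were lower and 3 higher, with a median of 0.07. The array's probes read the hairpin or its precursor, not the mature microRNA. Rian, a host transcript, lay at 6.31, 6.79 and 6.99 in week 1 and at 4.2, 4.50 and 4.74 in week 3 and was 4.68-fold lower (log2 fold change -2.23, SE 0.14, adjusted p = 1.75e-12). Mir382 lay at 5.77, 6.56 and 7.15 in week 1 and at 4.46, 4.61 and 5.03 in week 3 and was 3.84-fold lower (log2 fold change -1.94, SE 0.171, adjusted p = 1.1e-09), and Mir487b lay at 6.47, 7.22 and 7.62 in week 1 and at 5.23, 5.44 and 5.57 in week 3 and was 3.34-fold lower (log2 fold change -1.74, SE 0.142, adjusted p = 2.82e-10). In these 3 no array of week 3 reached week 1. At the ends of the locus, Dlk1 had a log2 fold change of -0.64 and Dio3, the thyroid hormone deiodinase, 0.88, neither called, and Rtl1, a paternal transcript, 0.05.

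The mature sequences that RefSeq lists for the 6 hairpins of the locus with the largest decreases are given, with the seed (bases 2 to 8, which pairs with targets) in capitals. They lie on the plus strand of chromosome 12 in GRCm38.p6, and the first, mmu-miR-382-5p, at chr12:109733781-109733802.
mmu-miR-382-5p: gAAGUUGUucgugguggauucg
mmu-miR-382-3p: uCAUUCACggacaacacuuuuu
mmu-miR-487b-5p: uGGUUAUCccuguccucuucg
mmu-miR-300-5p: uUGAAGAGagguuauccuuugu
mmu-miR-300-3p: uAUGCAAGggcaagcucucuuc
mmu-miR-380-5p: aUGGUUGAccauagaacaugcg
mmu-miR-380-3p: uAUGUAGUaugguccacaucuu
mmu-miR-323-5p: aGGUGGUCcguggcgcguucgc
mmu-miR-323-3p: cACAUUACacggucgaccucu
mmu-miR-329-5p: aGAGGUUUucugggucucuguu
mmu-miR-329-3p: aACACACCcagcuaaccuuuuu
Mir300, Mir380, Mir323 and Mir329 were 2.94-fold, 2.85-fold, 2.84-fold and 2.65-fold lower, each with the weeks apart. Mature sequences were compared for 21 of the 23 called hairpin genes inside and outside the locus. Those of Mir143 and Mir145a were left out, so their seeds were not compared. Among the mature sequences compared, no seed of the locus was shared by 2 of them.

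Elsewhere the called hairpins included some known for single tissues, chosen here after their values were seen. Mir1a-1, of striated muscle, was 2.14-fold lower with overlapping arrays, and was not called with the Xist covariate (log2 fold change -0.82). Mir181a-1 and Mir181b-1, close neighbours abundant in retina, were 2.08-fold and 2.74-fold lower, also with overlap. Mir200b, of epithelia, lay at 3.98, 4.29 and 5.07 in week 1 and at 4.57, 5.38 and 6.06 in week 3 and was 2.03-fold higher (log2 fold change 1.02, SE 0.225, adjusted p = 0.000502), again with overlap. Mir143 and Mir145a, of smooth muscle, were 2.08-fold and 2.49-fold higher with week 3 above week 1 on every array. Mature forms of Mir181a-1, Mir181b-1 and Mir200b are printed to show that the 2 forms of miR-181 share a seed, ACAUUCA, and miR-200b does not.
mmu-miR-181a-5p: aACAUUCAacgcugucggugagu
mmu-miR-181b-5p: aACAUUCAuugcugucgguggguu
mmu-miR-200b-3p: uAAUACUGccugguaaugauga

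**Figure D4:**
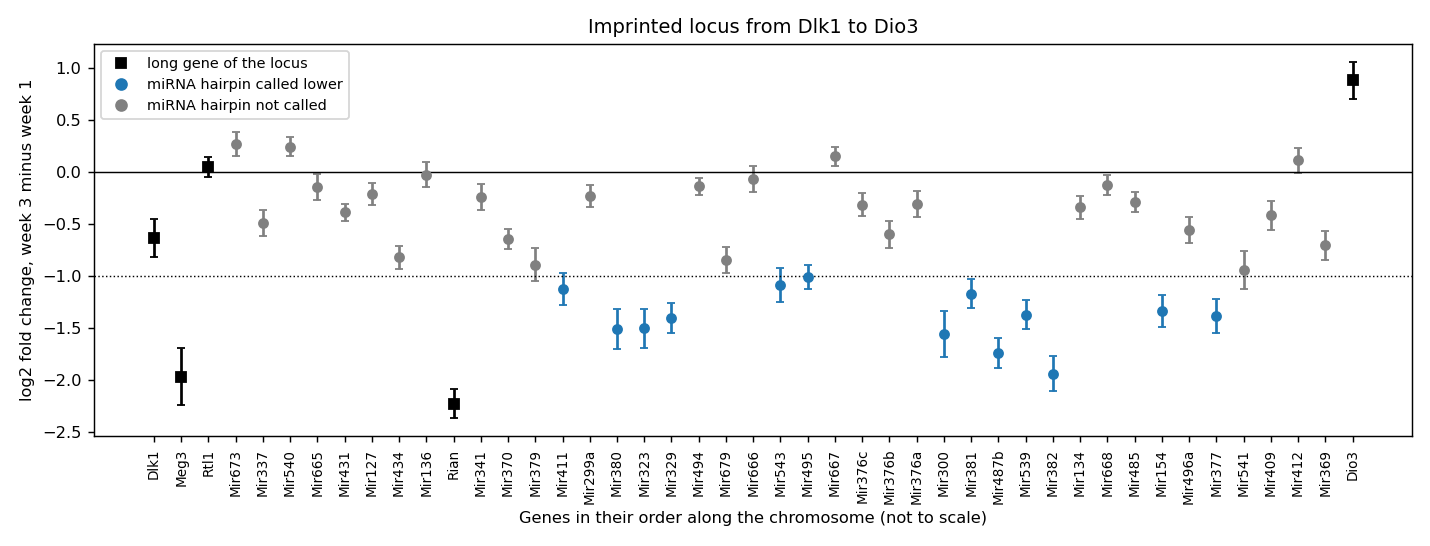
Log2 fold change of week 3 minus week 1 (vertical axis, bars are SE) for the genes of the imprinted locus in their order along the chromosome. Squares are long genes, blue circles hairpins called lower and grey circles hairpins not called, and the dotted line is the 2-fold threshold. Meg3, Rian and 13 hairpins lie below the line, and Dlk1, Rtl1 and Dio3 lie above it.

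Glucocorticoids act through a nuclear receptor that binds DNA and raises a set of well-known target genes within hours. Of 18 measured genes of a list of glucocorticoid-induced and stress genes, 9 were higher and 1 lower, with a median log2 fold change of 0.98. Fkbp5, a chaperone partner of the receptor, lay at 6.38, 6.62 and 6.85 in week 1 and at 9.28, 9.42 and 9.69 in week 3 and was 7.17-fold higher (log2 fold change 2.84, SE 0.117, adjusted p = 3.32e-16). Zbtb16 lay at 6.71, 7.24 and 7.51 in week 1 and at 9.33, 9.71 and 10.48 in week 3 and was 6.09-fold higher (log2 fold change 2.61, SE 0.15, adjusted p = 4.59e-13), and Tsc22d3, the leucine zipper protein GILZ, lay at 6.51, 6.65 and 6.95 in week 1 and at 8.20, 8.47 and 9.12 in week 3 and was 3.58-fold higher. In these 3 genes the gap between the weeks was wider than the range of either week. The metallothioneins Mt2 and Mt1 were 3.50-fold and 2.04-fold higher, Ddit4 2.88-fold higher and lipocalin 2 (Lcn2) 3.65-fold higher, whereas the kinase gene Pdk4 was 2.45-fold lower. The receptor gene Nr3c1 had a log2 fold change of -0.27 and was not called.

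The mean of this list stood at 8.4 in week 3, against 7.39 and 7.41 at the younger ages of weeks 1 and 2 and 7.53 and 7.43 at the older ages of weeks 6 and 8. Its lowest week 3 array, at 8.30, was above the highest week 1 array, at 7.45. The count of 9 was between 8 and 10 without any 1 array, 8 after quantile normalization and 9 with the Xist covariate. With that covariate no gene of the list was called lower, so the call of Pdk4 was lost (log2 fold change -0.87, adjusted p = 0.096). Neither labels nor methods state the time of day or the handling of the animals, and their part was not tested.

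Several genes of the circadian clock were higher in week 3 too. The clock runs on a loop in which the activators CLOCK and ARNTL switch on repressors of the Per, Cry and Nr1d families through E-boxes in their promoters. Of 19 measured clock genes 7 were higher and none lower, with a median log2 fold change of 0.57. For 13 of the 19 all week 3 arrays lay above week 1, against 16.8% of all genes. Per1, a repressor that is also induced by glucocorticoids, lay at 7.11, 7.31 and 7.61 in week 1 and at 9.30, 9.68 and 10.03 in week 3 and was 4.97-fold higher (log2 fold change 2.31, SE 0.156, adjusted p = 8.63e-12). Nr1d1, the repressor REV-ERB alpha, lay at 8.15, 8.81 and 9.08 in week 1 and at 10.39, 10.51 and 10.83 in week 3 and was 3.68-fold higher (log2 fold change 1.88, SE 0.138, adjusted p = 5.05e-11). Ciart, Dbp, Per2, Bhlhe40 and Hlf were 3.06-fold, 2.60-fold, 2.53-fold, 2.40-fold and 2.28-fold higher. All 7 had their weeks apart. The activator gene Arntl ran the other way, lying at 7.17, 7.57 and 8.18 in week 1 and at 6.27, 6.71 and 7.08 in week 3, and its log2 fold change of -0.93 (adjusted p = 5.04e-05) was just under the 2-fold threshold, which it passed with the Xist covariate (-1.21) as the 1 clock gene then called lower. The count of clock genes called higher was 7 without any 1 array and with the Xist covariate. The age groups and the hour at which tissue was taken cannot be told apart here.

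The clock E-box CACGTG was present in 6 of 24 promoters of the measured clock genes (25%) against 6.02% of all promoters. Among promoters of the called members it was in 2 of 6 (33.3%), both printed below. This motif was added after the values were seen. Ciart and Per1, which rose, are printed with the E-box in capitals.
Ciart, chr3:95882229-95882378, minus strand: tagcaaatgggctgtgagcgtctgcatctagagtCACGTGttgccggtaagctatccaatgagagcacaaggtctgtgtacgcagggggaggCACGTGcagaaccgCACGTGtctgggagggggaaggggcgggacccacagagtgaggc
Per1, chr11:69098699-69098848, plus strand: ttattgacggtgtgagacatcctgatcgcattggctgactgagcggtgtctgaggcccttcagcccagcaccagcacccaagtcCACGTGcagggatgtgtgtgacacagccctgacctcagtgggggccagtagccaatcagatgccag

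**Figure D5:**
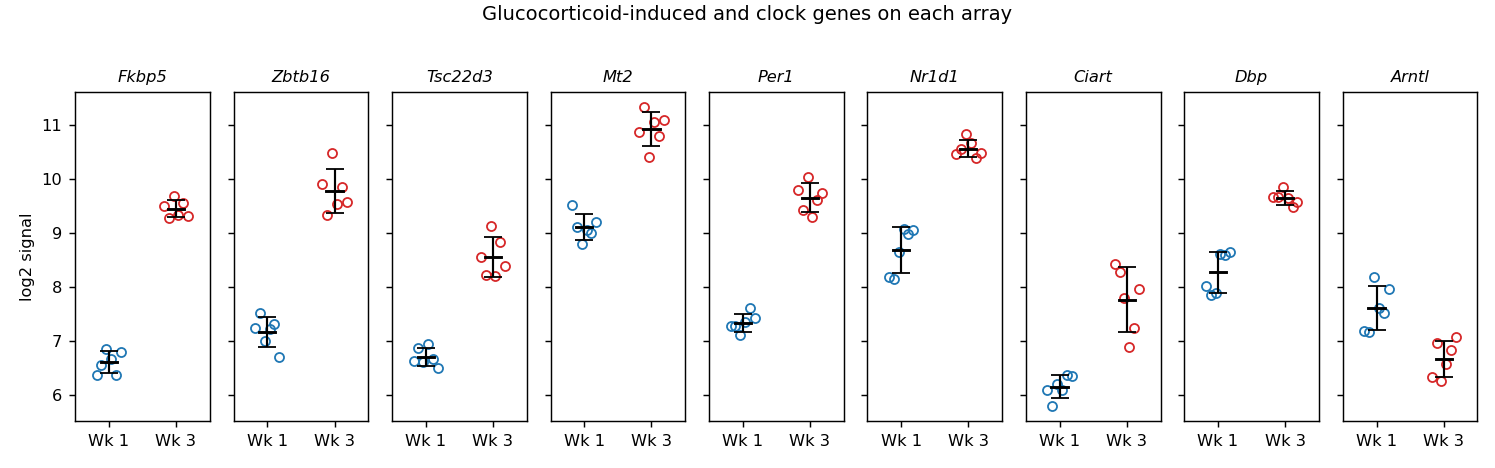
Log2 signal (vertical axis) of 4 glucocorticoid-induced genes and 5 clock genes on each array of week 1 (blue) and week 3 (red). Each open circle is 1 array and the black bars give mean and SD. For all 9 genes the weeks do not overlap, and Arntl alone of them is lower in week 3.

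Of 27 immediate early genes 6 were higher and none lower (median log2 fold change 0.53). The mRNA decay factor Zfp36 lay at 6.14, 6.27 and 6.53 in week 1 and at 7.92, 7.97 and 8.32 in week 3 and was 3.27-fold higher (log2 fold change 1.71, SE 0.105, adjusted p = 1.12e-12). The phosphatase gene Dusp1 lay at 8.27, 8.82 and 9.42 in week 1 and at 10.03, 10.50 and 11.01 in week 3 and was 3.27-fold higher (log2 fold change 1.71, SE 0.248, adjusted p = 2.69e-06). Fosl2 and Junb, both parts of AP-1, were 3.08-fold and 2.14-fold higher. All 4 were apart. The early genes Fos and Egr1 had log2 fold changes of 0.52 and 0.81 and were not called, though Egr1 had 1.02 and was called with the Xist covariate. After quantile normalization 4 of the 27 were called.

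Genes of vessels and of the immune system rose in part. Of 32 endothelial genes 7 were higher and 2 lower. The clotting factor gene Vwf lay at 7.89, 8.48 and 9.17 in week 1 and at 9.54, 9.93 and 10.86 in week 3 and was 2.81-fold higher (log2 fold change 1.49, SE 0.322, adjusted p = 0.0004), the arterial connexin Gja4 2.47-fold higher, and the apelin receptor Aplnr, of growing vessels, lay at 7.79, 8.24 and 8.51 in week 1 and at 6.21, 6.48 and 7.28 in week 3 and was 2.93-fold lower (log2 fold change -1.55, SE 0.162, adjusted p = 1.8e-08). In all 3 the weeks were apart, whereas the general endothelial markers Pecam1 and Cdh5 had log2 fold changes of 0.43 and -0.41 and were not called. Among 19 pericyte and smooth muscle genes 4 were higher, including Notch3, 2.28-fold higher, and the smooth muscle myosin Myh11, 2.58-fold higher. The 1 lower member was desmin (Des), the intermediate filament of muscle cells, striated muscle included, which was 4.86-fold lower (log2 fold change -2.28, SE 0.342, adjusted p = 4.34e-06) with overlapping arrays. Of 22 vascular growth factor and hypoxia genes, the oxygen-sensitive factors Epas1 and Hif3a were 2.85-fold and 3.43-fold higher and the hydroxylase Egln3 3.69-fold higher, while Bnip3, Vegfa and Angpt1 were 2.41-fold, 2.03-fold and 2.06-fold lower. Another transcript cluster of Bnip3 had a log2 fold change of -0.45. The 3 decreases were 1 without week 3 replicate 2 and 1 with the Xist covariate, where Vegfa and Angpt1 had log2 fold changes of -0.99 and -0.97.

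Of 22 genes of class II antigen presentation and interferon response, 7 were higher and none lower. The interferon regulator Irf7 lay at 6.13, 6.45 and 6.82 in week 1 and at 7.65, 8.51 and 9.53 in week 3 and was 4.36-fold higher (log2 fold change 2.12, SE 0.263, adjusted p = 2.55e-07). The invariant chain Cd74 lay at 5.53, 5.66 and 5.87 in week 1 and at 6.75, 7.03 and 7.21 in week 3 and was 2.54-fold higher (log2 fold change 1.34, SE 0.154, adjusted p = 8.04e-08), the peptide transporter Tap1 2.65-fold higher and the immunoproteasome subunit Psmb8 2.59-fold higher, all apart. Of 31 macrophage and leukocyte genes 2 were higher and none lower. That share of 6.45% was close to the 6.56% of all genes called, and the median log2 fold change of the list was 0.09. Itgam, the myeloid integrin CD11b, lay at 6.05, 6.24 and 7.26 in week 1 and at 7.95, 9.12 and 9.72 in week 3 and was 6.26-fold higher (log2 fold change 2.65, SE 0.289, adjusted p = 3.78e-08). The macrophage receptor Csf1r had a log2 fold change of -0.47 and Cd68 of 0.73, neither called. None of 19 complement genes was called.

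Some mitochondrial and nerve genes were lower in week 3. Of 21 genes for PGC-1 coactivators and partners 5 were lower and none higher. Ppargc1a, the coactivator that raises mitochondrial gene expression, lay at 7.42, 7.60 and 8.05 in week 1 and at 6.05, 6.64 and 6.82 in week 3 and was 2.13-fold lower (log2 fold change -1.09, SE 0.18, adjusted p = 1.64e-05), and its relative Ppargc1b had a log2 fold change of -0.38 and was not called. Cytochrome c (Cycs) was 3.53-fold lower, the nuclear receptor Esrrg 2.51-fold lower and the complex I subunit Ndufs1 2.22-fold lower, all with arrays apart. The muscle mitochondrial creatine kinase Ckmt2 was 5.82-fold lower. The Ppargc1a decrease was just under 2-fold without week 3 replicate 2 (log2 fold change -0.98) and -0.86 with the Xist covariate. Of 41 respiratory chain genes 2 were lower (4.88%, against 3.07% of all genes), the muscle isoform Cox7a1 by 5.64-fold. In 17 of the 41 all week 3 arrays lay below week 1, which held for 9.54% of all genes. The muscle genes described above move in the same direction, and their part was not tested. Of 37 axon guidance and neural adhesion genes 14 were lower and 3 higher, among them the growth cone protein Gap43, which lay at 7.70, 8.63 and 8.88 in week 1 and at 6.67, 6.92 and 7.01 in week 3 and was 3.12-fold lower (log2 fold change -1.64, SE 0.147, adjusted p = 1.38e-09). Of 21 myelin and Schwann cell genes 2 were higher and 1 lower, or 2 lower with the Xist covariate.

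Further single genes had large changes. Car3, a carbonic anhydrase of fat and slow muscle, lay at 8.27, 9.0 and 9.71 in week 1 and at 4.36, 5.69 and 6.14 in week 3 and was 11.4-fold lower (log2 fold change -3.52, SE 0.341, adjusted p = 5.32e-09). Fabp4, a fatty acid binding protein, was 4.18-fold lower, and both were apart. The triglyceride enzyme Dgat2 was 3.20-fold higher. The mineralisation enzyme Alpl lay at 7.41, 8.10 and 8.36 in week 1 and at 9.37, 9.85 and 10.30 in week 3 and was 3.59-fold higher (log2 fold change 1.85, SE 0.213, adjusted p = 8.83e-08). The osteocyte protease gene Phex was 2.46-fold lower. Angptl7, a secreted protein of cornea and sclera, lay at 7.55, 8.32 and 9.38 in week 1 and at 9.57, 10.56 and 11.20 in week 3 and was 4.47-fold higher (log2 fold change 2.16, SE 0.302, adjusted p = 1.64e-06). Its arrays, like those of Alpl, Phex and Dgat2, were apart between the weeks. The transferrin receptor Tfrc and the glycolytic enzyme Pgk1, both used as reference genes, were 2.95-fold and 2.20-fold lower, while Actb and Hprt had log2 fold changes of 0.36 and -0.12.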

How the data were processed

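Gene expression was measured in 30 sclerae of Balb/cJ mice, 6 per age, on Mouse Gene 1.0 ST arrays. The authors deposited 1 table of log2 signals per transcript cluster. The paper's methods name RMA in Partek Genomic Suite 6.5, while the submitters' processing notes name GCRMA, so the background correction is not settled. The methods also describe a batch removal on scan date. Whether the deposited log2 values include it, and the scan dates, are not given in the sources used here, so no batch could be fitted.

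Values were used as deposited. limma 3.58.1 in R 4.3.3 was fitted to all 35556 transcript clusters and 30 arrays with 1 mean per week, and week 3 was contrasted with week 1 by moderated tests with Benjamini-Hochberg adjustment. Groups came from the labels. A gene was represented by its brightest transcript cluster with a single symbol (999 of 19938 genes had several), and 1621 transcript clusters with several symbols and 12146 with none were left out of gene counts. The 212 genes examined singly were the 15 largest changes each way, the largest called members of each list, genes of the study's text and tissue markers. The 50 lists and their members, the microRNA locus and the other genes named were chosen after their values were seen or with earlier results of these data known. Alternatives covered normalization, filters, covariates, array weights, a replicate block and leaving out each array. Sequences were taken from RefSeq tables on GRCm38.p6.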

Additional observations from a re-analysis of the deposited data

Results flagged for a closer look

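Within a week, the highest or lowest of 6 arrays was set apart where its gap to the nearest array was larger, as a share of the range of the week, than the 95% critical value of Dixon's test. This held in 46 of 524 groups of arrays, and chance gives about 1 in 20 for independent groups. The groups are genes and list means on the same arrays, many of which move together, so the 46 are not separate events. No explanation was tested. Each value is a log2 signal, with that of the nearest array after it.

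Week 3 replicate 3 was lowest of its week for Psca at 6.73 against 9.91, Slc5a1 at 7.63 against 8.99, Gm9573 at 8.92 against 10.52, Asprv1 at 10.92 against 12.26, Slc5a8 at 8.25 against 9.37 and Cbr2 at 11.45 against 12.47. The same array was also lowest for Krt13 at 11.02 against 12.03, Krt6b at 10.49 against 12.06, Elf3 at 8.04 against 9.65, Dsg3 at 8.02 against 9.63, Aqp5 at 8.66 against 11.10 and Lypd2 at 7.39 against 11.09. The same array was also lowest for Mal at 9.58 against 10.93, Aldh3a1 at 9.60 against 12.53, Krt12 at 8.36 against 12.65, Krt5 at 11.53 against 12.76, the mean of keratins and envelope genes of surface epithelium at 7.29 against 7.88 and the mean of ocular surface, mucin and defence genes at 7.03 against 8.04. Week 1 replicate 2 was highest of its week for Psca at 5.01 against 4.39, Lamb3 at 7.24 against 6.55, Psmb8 at 6.32 against 5.93 and Ltf at 6.35 against 5.50. Week 3 replicate 6 was highest of its week for Nnat at 6.78 against 6.2, Esrrg at 6.60 against 6.17, Ppargc1b at 7.83 against 7.42 and the mean of myelin and Schwann cell genes at 7.24 against 6.98. Week 1 replicate 2 was lowest of its week for Otx2 at 8.26 against 9.73, Ednrb at 8.32 against 9.28, Myo5a at 7.91 against 8.65 and Rgr at 9.54 against 10.88. Week 3 replicate 3 was highest of its week for Notch3 at 10.35 against 10.03, Epas1 at 11.72 against 11.36 and the mean of PGC-1 and partner genes at 6.97 against 6.85. Week 1 replicate 6 was lowest of its week for Myh1 at 9.62 against 11.17 and Casq1 at 9.79 against 11.24. Week 1 replicate 5 was highest of its week for Mgp at 10.08 against 9.40 and Epas1 at 10.19 against 9.88. Week 1 replicate 1 was lowest of its week for Meg3 at 10.38 against 11.04 and Gap43 at 7.70 against 8.49. Week 1 replicate 1 was highest of its week for Myh11 at 10.26 against 9.01 and Tagln at 9.47 against 8.50. Week 3 replicate 2 was lowest of its week for Ppargc1a at 6.05 against 6.58 and Col1a1 at 12.22 against 12.76. Week 3 replicate 1 was highest of its week for Myh11 at 11.20 against 10.36. Week 3 replicate 2 was highest of its week for Zfp36 at 8.32 against 8.02. Week 3 replicate 1 was lowest of its week for Rgr at 8.37 against 9.12.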

How the results depend on the processing

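Main counts were 963 transcript clusters higher and 1581 lower (37.9% of calls higher), and 694 genes higher and 613 lower. With transcript clusters above the median signal, 692 clusters and 399 genes were lower, and the split was 53.0% higher. With transcript clusters of 1 symbol, 739 were lower and the split was 49.1%. With no fold threshold, 8987 clusters were higher and 8097 lower (52.6%), and 5759 genes higher and 4229 lower. At a fold threshold of 1.5, 3132 clusters were higher and 4000 lower, and 1914 genes higher and 1749 lower. Leaving out 1 array gave 927 to 1062 clusters higher and 1454 to 1770 lower, and 647 to 766 genes higher and 553 to 712 lower. Myo18b, an unconventional myosin of muscle, had a log2 fold change of 0.08 (adjusted p = 0.619) at its brightest transcript cluster and -1.24 as the mean over its 20 clusters (adjusted p = 9.62e-06).

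With the replicate number as a block, 963 clusters were higher and 1580 lower, and 694 genes higher and 613 lower. Deviations of same-numbered arrays correlated at 0.2071, -0.01671, -0.01008, -0.1721, -0.005471 and 0.3664, so the numbers were not taken to pair the animals.

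With the Xist signal as a covariate, added after seeing the data, 844 genes were higher and 726 lower, of which 665 and 531 were also called without it, and the causes were not tested. The Xist slope of that fit comes from differences among arrays of the same week. Within week 1, replicates 3, 4 and 6, where Xist was high, had rod gene means of 9.59, 9.12 and 9.81. Replicates 1, 2 and 5 had 7.68, 7.26 and 8.97. Xist and retinal content thus moved together there, and that fit cannot tell the part of each apart. With 6 arrays a week, changes near 2-fold pass or miss the threshold with single arrays, and of the 212 genes examined singly between 3 and 12 lost their call without any 1 array. The call of Bnip3 was lost with the mean over its clusters (log2 fold change -0.86).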
